A study of Mus musculus with 4 samples.

Results

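Tex14, Pecr, Ptma, Pipox, Cuedc1, Mrps23, Cep68 and Crkrs are 8 mouse genes that the study labelled by name where its SOX3 peaks met long-range contacts of RNA polymerase II measured elsewhere, and Crkrs is annotated as Cdk12. They are 8 of the 22367 protein-coding genes of the annotation. Each peak that overlapped the body of one of them, or the 100 kb to either side, was taken, and peaks that overlapped by at least 1 bp were merged into a region. This gave 110 of the 51271 regions of the whole series, and 33 of the 5358 regions with a peak in each of the 3 replicates.

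SOX3 ChIP-seq was performed on neural progenitor (NP) cells obtained from R1 mouse embryonic stem cells after 4 days in N2B27, a serum-free medium with the N2 and B27 supplements. The samples fall into 1 group of 3 biological replicates, immunoprecipitated with a goat antibody raised against human SOX3 (R&D AF2569), and 1 input sample without that antibody, from the same cells. The cells of each sample derive from a single line, no transgene or further treatment is given, and there was no contrast between conditions, so no test was made. The input served as the background for peak calling and has no list of its own here.

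SOX3 is an HMG-box transcription factor of the SOXB1 group, which it forms with SOX1 and SOX2, and it is known for holding neural progenitors in an undifferentiated state. SOX proteins bind short AT-rich words, often next to the site of a partner protein such as a POU factor, which recognises the octamer word. The genes of the spliceosomal RNAs U1 and U2 and of U3, a small nucleolar RNA that guides the cutting of ribosomal RNA precursors, are present in the genome in many near-identical copies, and their upstream enhancer element is known to carry an octamer in many copies.

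The lists held 18816 peaks in replicate 1, 8096 in replicate 2 and 40543 in replicate 3. The score of a peak is 10 times the negative log10 of its MACS p-value, with a lowest value of 50 in each list. It grows with the depth of the library, which is unknown because the lists give no read counts, so a score was compared with others of its own list, by rank (1 for the highest, equal scores sharing the better rank) and by percentile (the share of the list with a lower score). The score of 3100 was shared by 7, 1 and 27 peaks of replicates 1, 2 and 3, and 2 peaks of replicate 3 scored above it. It may be a limit of the scale, so regions at 3100, which were 8 of the 33 in replicate 3 and share rank 3 there, are not ordered among themselves by it. Positions are given on mm9, counted from 1.

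Of the 110 regions, 33 (30%) had a peak in every replicate, 13 had peaks in 2 replicates and 64 in 1 replicate only. Over the whole series, 10.5% of the merged regions had a peak in every replicate. All 8 genes had at least 1 such region, against 42.2% of all protein-coding genes in windows built the same way. The study named these genes because of peaks near them, so neither count is an independent result. Ptma had 8 regions with a peak in every replicate, Tex14, Pecr, Cuedc1 and Mrps23 had 6 each, Cep68 had 3, and Pipox and Crkrs had 2 each. The windows of Cuedc1 and Mrps23, which are neighbours, shared 13 regions, among them all 6 with a peak in every replicate. The median protein-coding gene had 0 such regions in its window, and 0.827% of genes had more than 6.

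**Figure D1:**
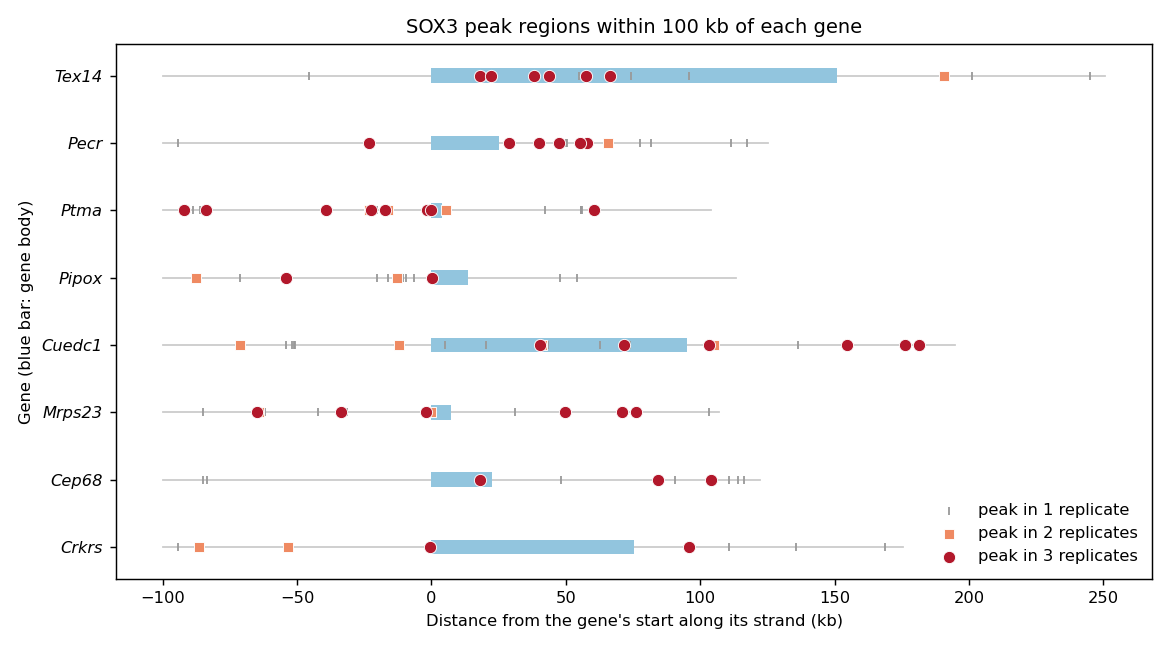
Position of the middle of each merged peak region (horizontal axis, kb from the start of the gene along its strand) around the 8 genes, with the gene body as a blue bar and the window of 100 kb to either side as a grey line. Circles, squares and ticks mark regions with peaks in 3, 2 and 1 replicates, and the 6 circles of Tex14 all lie inside the gene, whereas the circles of Pecr lie outside it.

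The 6 regions of Tex14 and 4 of the 6 near Pecr were among the highest scores of each list, whereas the other 23 regions with a peak in every replicate were spread over the score range. In 11 of the 33 regions (33.3%) the score was in the top 1% of each list, against 1.47% of all regions with a peak in every replicate. Of these 11, 6 were in Tex14, 4 were near Pecr and 1 was in Cuedc1. There were 18 protein-coding genes with 4 or more such regions in their windows. Of these, 7 were Tex14, Pecr and neighbours that share the same regions, such as Rad51c and Xrcc5, and 11 lay at 3 other loci, on chromosomes 3, 11 and 12. An annotated small RNA gene lay in 10 of the 33 regions (30.3%), the 6 in Tex14 and the 4 of the top group near Pecr, against 1.03% of all regions with a peak in every replicate.

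Tex14 (ENSMUSG00000010342, chromosome 11 from 87218567 to 87369325, plus strand) encodes a protein of the bridges that join dividing germ cells. Its 6 regions were spread over 49384 bp, with gaps of 3084 to 15153 bp between neighbours, and the first 2 lay in intron 1 and the other 4 in intron 2 of its longest transcript. The first 2 each held a U1 gene, a spliceosomal RNA that pairs with the start of introns, and the other 4 each held a U3 gene. The U1 region from 87235952 to 87237009 lay 17913.5 bp inside the gene and scored 1450 in replicate 1, 975 in replicate 2 and 2201 in replicate 3 (ranks 68, 45 and 43). The U1 region from 87240094 to 87241223 lay 22091.5 bp from the gene start and 434.5 bp from the start of another Tex14 transcript, and scored 1194, 987 and 1905 (ranks 113, 43 and 54). In each list the scores of both U1 regions were below those of the U3 regions.

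Among the U3 regions, the one from 87256377 to 87257440 had the highest scores in replicates 1 and 2, with 2792 and 2193 (ranks 12 and 11), and 3100 in replicate 3. Its middle was 38341.5 bp from the gene start. The region from 87261864 to 87262811, at 43770.5 bp, scored 2355, 1959 and 3100. The region from 87275463 to 87276334, at 57331.5 bp, scored 2437, 2062 and 3100. The region from 87284440 to 87285335, at 66320.5 bp, scored 2684, 2151 and 3100. All 4 U3 regions thus shared rank 3 in replicate 3, and their ranks lay between 12 and 24 in replicate 1 and between 11 and 17 in replicate 2.

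The U3 region with the best ranks is shown as 300 bases of the plus strand, chr11:87256499-87256798, from 240 bases before the U3 gene to its first 60 bases. Capitals mark an octamer near the beginning and the U3 gene at the end.
U3 in Tex14: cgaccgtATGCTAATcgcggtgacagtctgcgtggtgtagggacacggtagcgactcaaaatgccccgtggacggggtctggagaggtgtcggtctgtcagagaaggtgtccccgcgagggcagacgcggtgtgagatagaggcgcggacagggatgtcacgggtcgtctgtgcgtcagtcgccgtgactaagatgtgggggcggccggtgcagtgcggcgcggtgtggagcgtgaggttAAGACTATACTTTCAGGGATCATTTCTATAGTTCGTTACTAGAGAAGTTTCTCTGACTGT

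The 4 U3 genes, each 214 bp long, were identical in sequence, as were the 2 U1 genes of 164 bp. All were on the plus strand, the strand of Tex14. An octamer of the form ATGCTAAT began 233 bases before each U3 gene. The second U1 gene had the form ATGCAAAT 227 bases before it, at 87239991 to 87239998, which is outside the merged region, since that begins 124 bases before the gene. The first U1 gene had no octamer in the 500 bases before it. The stretch chr11:87239978-87240277 of the plus strand, chosen after its values were seen because its octamer falls outside the region, holds in capitals this octamer, a SOX word (TTTGTT, which is AACAAA on the other strand) and the first 60 bases of the second U1 gene.
U1 in Tex14: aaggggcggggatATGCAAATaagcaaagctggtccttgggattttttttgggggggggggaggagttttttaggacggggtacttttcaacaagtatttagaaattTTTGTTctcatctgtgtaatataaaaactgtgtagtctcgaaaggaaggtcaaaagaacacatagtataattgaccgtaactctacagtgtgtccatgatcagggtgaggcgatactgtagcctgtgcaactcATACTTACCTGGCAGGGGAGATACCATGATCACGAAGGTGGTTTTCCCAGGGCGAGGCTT

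Apart from these, Tex14 had 1 region with peaks in 2 replicates, from 87408946 to 87409279, 190545.5 bp from its start and 41.5 bp from a start of Mtmr4, a lipid phosphatase gene. It scored 113 in replicate 1 and 60.9 in replicate 3 (ranks 6078 and 22748). Of its 7 regions with a peak in 1 replicate, the 2 of replicate 1 scored 64.2 and 78.3, and the 5 of replicate 3 scored 50.9 to 59.8. The highest of replicate 1 ran from 87273423 to 87273563 in an intron (rank 9255, percentile 50.8), and that of replicate 3 from 87463520 to 87463711 (rank 23889, percentile 41.1).

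Pecr (ENSMUSG00000026189, chromosome 1 from 72305741 to 72330888, minus strand) encodes a peroxisomal enoyl-CoA reductase that acts in fatty acid chain elongation. All 6 of its regions with a peak in every replicate lay outside the gene, 5 past its end and 1 before its start. The 4 of the top group held a gene of U2, the spliceosomal RNA that pairs with the branch point of introns, or of a U2-like RNA, and spanned 30236 bp with gaps of 6130 to 9870 bp between neighbours. The annotation names them U2, AC120136.2, AC120136.1 and AC120136.3, in order along the chromosome, and these genes of 191 bp were 97.9 to 99.5% identical to each other. None lay in a protein-coding gene. The nearest protein-coding start was that of Mreg for 3 of them, at 14100.5 to 31965.5 bp, and that of a Pecr transcript for AC120136.3, at 28872.5 bp.

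The AC120136.3 region from 72301245 to 72302676 was the widest of the 33 (1432 bp) and had the highest scores of all of them in replicates 1 and 2, with 3007 and 2335 (ranks 10 and 8). In replicate 3 it scored 3100, as the other 3 did. Its middle lay 28927.5 bp from the Pecr start. The AC120136.1 region from 72290319 to 72291374, at 40041.5 bp, scored 2405 and 1781 in replicates 1 and 2 (ranks 22 and 20). The AC120136.2 region from 72282975 to 72284188, at 47306.5 bp, scored 1690 and 1497 (ranks 49 and 28). The U2 region from 72272441 to 72273522, at 57906.5 bp, scored 1879 and 1783 (ranks 40 and 19).

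The AC120136.3 region is shown as the plus strand of chr1:72301342-72301641, from 240 bases before the small RNA gene, with its octamer and the first 60 bases of the gene in capitals.
AC120136.3 near Pecr: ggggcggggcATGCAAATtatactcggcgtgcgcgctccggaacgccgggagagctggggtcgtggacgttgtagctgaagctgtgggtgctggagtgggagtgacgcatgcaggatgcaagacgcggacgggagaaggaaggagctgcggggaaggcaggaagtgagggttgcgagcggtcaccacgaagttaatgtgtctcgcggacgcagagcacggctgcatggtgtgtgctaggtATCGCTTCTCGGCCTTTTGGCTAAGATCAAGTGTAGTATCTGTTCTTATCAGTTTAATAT

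The octamer before the U2-type genes was ATGCAAAT in each case, at 230 bases before U2, AC120136.2 and AC120136.3 and at 229 bases before AC120136.1. The letters around it are set side by side for the 6 kinds of copy, each as 30 bases of the plus strand with the octamer in capitals, because its place before the gene was shared by copies of different RNAs. The U3 line stands for 4 copies with the same 30 bases.
U2, chr1:72272573-72272602: tggggcggggcATGCAAATaatactcggcg
AC120136.2, chr1:72283279-72283308: ggtggcggggcATGCAAATcatactcggcg
AC120136.1, chr1:72290547-72290576: gggggcggggcATGCAAATcatactcggcg
AC120136.3, chr1:72301341-72301370: gggggcggggcATGCAAATtatactcggcg
U1, chr11:87239980-87240009: ggggcggggatATGCAAATaagcaaagctg
U3, chr11:87256495-87256524: tcggcgaccgtATGCTAATcgcggtgacag

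In the plus strand as printed, the octamer thus kept the same orientation toward the small RNA gene in all 9 copies that had it. At U2 and the 4 U3 genes the peak of each replicate held the octamer, whereas a peak held it in replicates 1 and 3 at AC120136.1 and in replicate 3 alone at AC120136.2 and AC120136.3. At AC120136.1 the peak of replicate 3 that held it was a separate one upstream of the small RNA gene, with a score of 92.3. In replicates 1 and 3 a single peak covered the whole small RNA gene in all 10 regions, and in replicate 2 this was so in 8. At the other 2, replicate 2 had a pair of peaks over the gene. A peak with a score of 74.4 covered the first 54 bases of AC120136.3 and the highest peak of the region its last 133, while at the second U1 gene a peak with a score of 127.5 covered the first 81 bases and the highest peak the last 52.

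**Figure D2:**
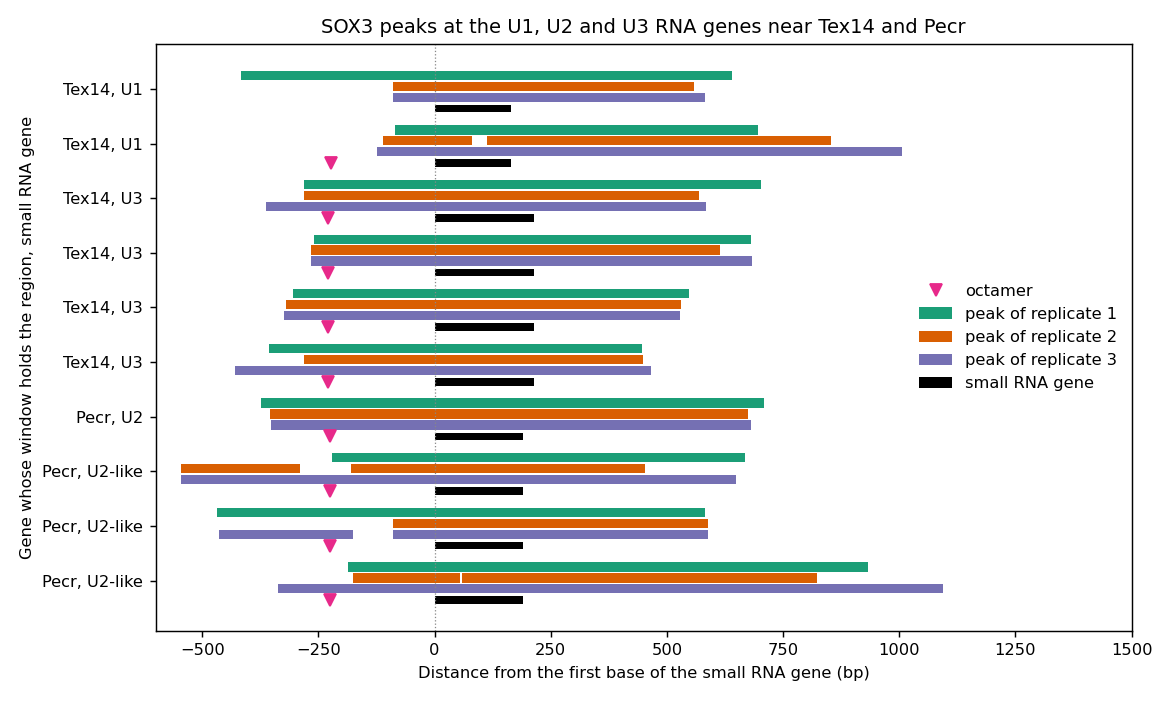
Extent of every peak of each replicate (coloured bars) at the 10 small RNA genes in regions of Tex14 and Pecr, in bp from the first base of the small RNA gene (black bar), with triangles at the octamer. The triangles of the U2-type and U3 genes stand at 229 to 233 bases before the gene, the triangle of the second U1 gene stands to the left of all its peaks, and the first U1 gene has none.

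An octamer within 500 bases upstream was present for 9 of these 10 small RNA genes (90%). It was present for 20 of the 45 other small RNA genes that lay in a region with a peak in every replicate (44.4%), for 162 of the 2917 in no such region (5.55%) and for 946 of 22357 protein-coding gene starts (4.23%). With the octamer required to begin 200 to 250 bases upstream, a range chosen after the positions were seen, the numbers were 9 of 10, 18 of 45 (40%), 19 of 2917 (0.651%) and 91 starts (0.407%). Copies of one RNA share their sequence, so they are not independent counts. The 10 genes are all of the U1, U2 or U3 type, whereas the 2917 mix all annotated snRNA and snoRNA kinds. They include most of the 936 U6 genes, of which 5.98% had an octamer within 500 bases upstream. U1, U2 and U3 genes in no such region were not counted apart. Whether the octamer goes with the region or with the kind of RNA was therefore not tested.

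The windows of the 8 genes held 13 snRNA or snoRNA genes, and the 3 that lay in no region with a peak in every replicate were all U6 genes, 2 near Tex14 and 1 near Cep68. U6 is the spliceosomal RNA that RNA polymerase III transcribes. In the whole genome, 0 of 936 U6 genes lay in a region with a peak in every replicate. The counts were 20 of 206 for U1 (9.71%), 10 of 51 for U2 (19.6%) and 6 of 47 for U3 (12.8%). Genes were counted by annotated name, so AC120136.1, AC120136.2 and AC120136.3 are not among the U2 genes. The counts include the copies in these windows, and most of the U3 genes in a region were those of Tex14. The 3 U6 genes of the windows were 74.5 to 81.3% identical to each other. How many of the 936 U6 genes are intact copies was not tested. The U6 gene near Tex14 that lay closest to a region, from 87257976 to 87258082, was beyond the end of the U3 region with the best ranks, at 87257440.

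The copies bear on how the reads could be placed. Between 9.91 and 64.5% of the 50-base sequences of the 10 regions have a further copy elsewhere in the genome, and the share was above 50% in the U3 regions from 87275463 and from 87284440. These were 2 of the 10, and 2 of the 33 regions (6.06%), against 14.7% of all regions with a peak in every replicate. The median share was 29.35% in the 10 regions. It was 0% in the other 23 and in all regions with a peak in every replicate. The most frequent 50-base sequence of the region from 87284440 occurs 14999 times in the genome. The part that reads from other copies had in these scores was not tested, since the lists hold no reads and the handling of reads with several matches is not given in the sources used here.

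The other 2 regions of Pecr had lower scores and no small RNA gene. The region from 72275562 to 72275944 lay between the U2 and AC120136.2 regions, 55135 bp from the Pecr start, and scored 247, 273 and 446 (ranks 2083, 708 and 873). It held a word that joins a SOX site of 6 letters to the octamer without its last letter, at 72275743 to 72275755. The minus strand of chr1:72275735-72275763 is printed with this word in capitals.
SOX-POU word near Pecr: attgtgtaATTGTTATGCAAAaatgttgg
The region from 72353696 to 72354220 lay 23070 bp before Pecr and 37 bp from a start of Xrcc5, the gene of the DNA repair protein Ku80, and scored 192, 146 and 275 (ranks 3003, 1847 and 1672). A region with peaks in replicates 2 and 3 only, from 72265153 to 72265374, scored 65.5 and 128. Of the 8 regions with a peak in 1 replicate, 3 were in replicate 1 (scores 80.2 to 150) and 5 in replicate 3 (scores 50.8 to 64.6). The highest of replicate 1 ran from 72280145 to 72280517 (rank 4228, percentile 77.5), and that of replicate 3 from 72249165 to 72249406 (rank 19610, percentile 51.6).

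**Figure D3:**
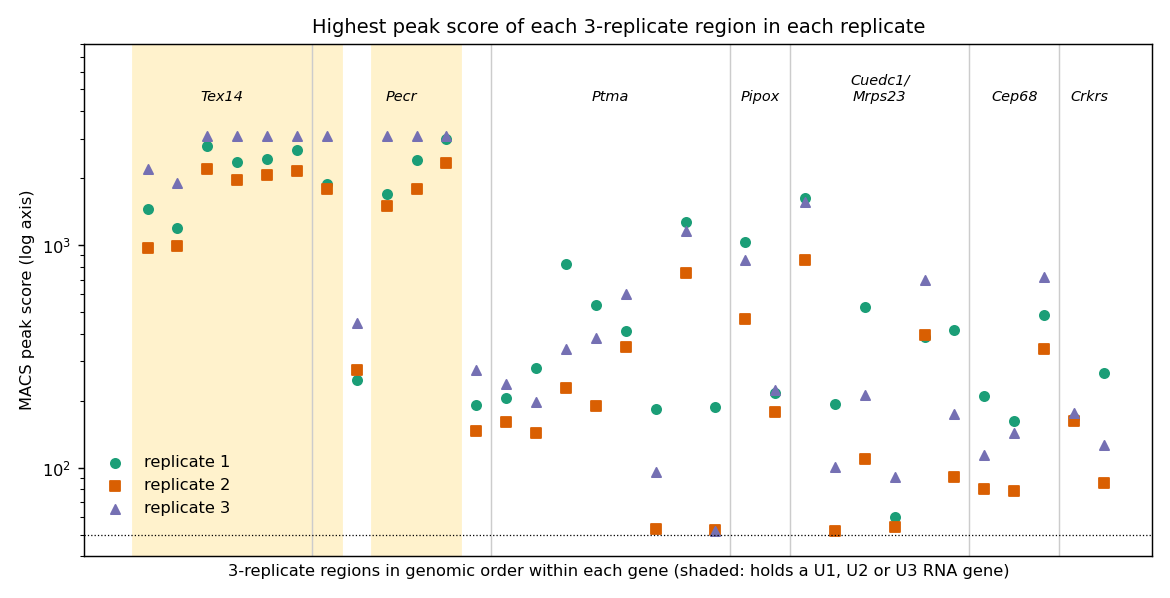
Highest MACS score of each of the 33 regions with a peak in every replicate (vertical log axis, no unit), one point per replicate, in genomic order within each gene, with the regions that hold a small RNA gene shaded and the lowest possible score of 50 dotted. All shaded points lie at 975 or above, and the unshaded points reach 1631, 854 and 1554 in replicates 1, 2 and 3, at Cuedc1.

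Ptma (ENSMUSG00000026238, chromosome 1 from 88423311 to 88427273, plus strand) encodes prothymosin alpha, a small acidic nuclear protein. It had the most regions of the 8 genes, 28, of which 8 had a peak in every replicate, 3 in 2 and 17 in 1. The highest scores were at its start. The region from 88422745 to 88423526, with its middle 175.5 bp upstream, scored 1268, 750 and 1154 (ranks 98, 91 and 148), and its percentile of 98.9 in replicate 2 placed it just outside the top 1% of that list. Of its 50-base sequences, 18.1% have a further copy elsewhere in the genome, the highest share of the 23 regions without a small RNA gene. The plus strand of chr1:88422980-88423279, upstream of the annotated start, is shown because it is covered by the peak of each replicate, with SOX words in capitals (AACAAA, and ATTGTT, which is AACAAT on the other strand). In this and the other sequences printed, this 6-letter word and its form with an initial G are marked as SOX words, and the core of the consensus counted further on is not.
Ptma promoter: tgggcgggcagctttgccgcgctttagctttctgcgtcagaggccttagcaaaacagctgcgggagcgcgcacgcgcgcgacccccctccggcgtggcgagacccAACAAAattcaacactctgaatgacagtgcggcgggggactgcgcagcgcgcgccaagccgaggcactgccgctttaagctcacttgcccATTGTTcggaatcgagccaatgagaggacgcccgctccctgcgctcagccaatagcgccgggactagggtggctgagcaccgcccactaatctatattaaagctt

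A second promoter region of Ptma ran from 88421527 to 88421992, 1551.5 bp upstream. It scored 183 in replicate 1 and 95.2 in replicate 3 (percentiles 83.1 and 79.2) and 53.1 in replicate 2, the 9.33rd percentile and close to the threshold. The other 5 upstream regions with a peak in every replicate were intergenic. The nearest of these 5, from 88405926 to 88406452 and 17122 bp away, scored 410, 347 and 603, and the one from 88400500 to 88401131, 22495.5 bp away, scored 538, 189 and 381. The region from 88383780 to 88384605, 39118.5 bp away, scored 822, 228 and 341 (percentiles 98.7, 88.1 and 96.9). The remaining 2, from 88339082 to 88339447 and from 88330982 to 88331559, lay 84046.5 and 92040.5 bp away and scored 281, 144 and 198 and 205, 160 and 239. In all 5, as in 80.2% of the regions of the whole series with a peak in every replicate, the percentile was lowest in replicate 2, with a spread over the lists of 4.6 points at the nearest region and of 10.6 to 16.4 points at the others.

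Downstream of Ptma, the region from 88483391 to 88483898 lay 60333.5 bp from its start and 30.5 bp from a start of Cops7b, a gene of the COP9 signalosome. It was at the 83.5th percentile in replicate 1 (score 187) and at the 7.63rd and 13.1st percentiles in replicates 2 and 3 (scores 52.3 and 52.2), so it was close to the threshold in both of these. The 3 regions with peaks in 2 replicates ran from 88399849 to 88400192 and from 88406784 to 88407230 (replicates 1 and 3, scores 81.2 and 124, and 152 and 160) and from 88428665 to 88428951 (replicates 2 and 3, scores 55.5 and 107). Of the 17 regions with a peak in 1 replicate, 7 were in replicate 1 with scores of 53.4 to 141 and 10 in replicate 3 with scores of 52.1 to 124. The highest of replicate 1 ran from 88428086 to 88428659, 5061.5 bp from the Ptma start (rank 4556, percentile 75.8), and that of replicate 3 from 88407238 to 88407593, 15895.5 bp upstream (rank 5286, percentile 87.0). The closest to the start ran from 88423759 to 88423986, inside the gene, with a score of 74.5 in replicate 1.

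Pipox (ENSMUSG00000017453, chromosome 11 from 77694117 to 77707598, minus strand) encodes a peroxisomal oxidase of sarcosine and pipecolic acid. Its start was covered by a region from 77707181 to 77707827, with its middle 94 bp inside the gene, in exon 1. This region scored 1035, 466 and 856 (ranks 155, 266 and 279). Among the 33 regions with a peak in every replicate it was the other of the 2 with a joined SOX-POU word, at 77707556 to 77707568 in exon 1, and there the next base completes a full octamer. The plus strand of chr11:77707548-77707576 is printed with the joined word in capitals, followed by the stretch upstream of the gene that the peak of each replicate covers, chr11:77707599-77707756, with a SOX word in capitals (TTTGTC, which is GACAAA on the other strand).
SOX-POU word in Pipox: gctcaattATTGTCATGCAAAtggcgcct
Pipox upstream: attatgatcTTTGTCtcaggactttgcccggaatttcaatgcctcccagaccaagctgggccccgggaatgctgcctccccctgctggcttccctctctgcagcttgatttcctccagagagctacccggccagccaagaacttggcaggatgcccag

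The second Pipox region with a peak in every replicate, from 77761394 to 77761785, lay 53991.5 bp upstream in intron 1 of Sez6, a gene of a neuronal membrane protein, 3217.5 bp from a Sez6 start. It scored 216, 178 and 223 (ranks 2546, 1379 and 2281). It held an octamer but no SOX word, the core of the consensus included. Of the 2 regions with peaks in replicates 1 and 3 only, the one from 77795111 to 77795512, 944.5 bp from a start of the chromatin gene Phf12, scored 213 and 136, and the one from 77720256 to 77720591 scored 50.8 and 53.9. Of 10 regions with a peak in 1 replicate, 3 were in replicate 1 (scores 50.5 to 77.5) and 7 in replicate 3 (scores 54.2 to 76.7). The highest of replicate 1 ran from 77778785 to 77778999 (rank 9365, percentile 50.1), and that of replicate 3 from 77718256 to 77718446 (rank 13134, percentile 67.6).

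Cuedc1 (ENSMUSG00000018378, chromosome 11 from 87912648 to 88007642, plus strand) encodes a protein with a ubiquitin-binding CUE domain. Mrps23 (ENSMUSG00000023723, chromosome 11 from 88017890 to 88025009, plus strand) encodes a protein of the small subunit of the mitochondrial ribosome. The region with the highest scores in their windows ran from 87952475 to 87953497 in intron 1 of Cuedc1, 40338 bp from the Cuedc1 start and 64904 bp upstream of Mrps23. It scored 1631, 854 and 1554 (ranks 53, 67 and 78), and was the only 1 of the 11 regions in the top 1% of each list that held no small RNA gene. The plus strand of chr11:87952796-87953095, covered by the peak of each replicate, is shown with a SOX word in capitals (TTTGTT, which is AACAAA on the other strand).
Cuedc1 intron 1: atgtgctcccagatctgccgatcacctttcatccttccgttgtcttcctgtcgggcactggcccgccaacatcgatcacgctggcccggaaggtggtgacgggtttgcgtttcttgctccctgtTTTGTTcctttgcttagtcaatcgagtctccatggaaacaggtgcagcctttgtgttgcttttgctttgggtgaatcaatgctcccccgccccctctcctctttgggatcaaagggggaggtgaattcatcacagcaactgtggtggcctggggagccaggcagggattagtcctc

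In intron 2 of Cuedc1, a region from 87984114 to 87984513, 71665.5 bp from the start, had the widest spread of percentiles of the 33. It was at 84.1 in replicate 1 and 81.3 in replicate 3 (scores 193 and 100.5) and at 5.67 in replicate 2 (score 51.7). Among regions with a peak in every replicate, the closest to Mrps23 ran from 88015662 to 88016055, 2031.5 bp upstream of that gene, and scored 529, 109 and 212 (ranks 616, 2786 and 2465). Of its 50-base sequences, 8.12% occur more than once in the genome, the most frequent of them 196731 times. The start of Mrps23 itself had a region with peaks in replicates 1 and 3 only, from 88017793 to 88017998, with scores of 53.3 and 53.9, near the threshold.

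Past Mrps23, 3 intergenic regions had a peak in every replicate. The region from 88088695 to 88089090, 71002.5 bp from the Mrps23 start, scored 386, 393 and 699 (ranks 1044, 386 and 435). The region from 88093773 to 88094335, at 76164 bp, scored 414, 90.5 and 174, and the region from 88067269 to 88067550, at 49519.5 bp, scored 59.9, 54.0 and 91.2. The nearest protein-coding start of all 3 was that of 1700106J16Rik, at 13491 to 40135.5 bp.

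Of the other regions of this pair, 3 had peaks in replicates 1 and 3. They ran from 87841187 to 87841565 (scores 72.3 and 67.3), from 87900452 to 87900760 (114 and 55.8) and from 87953573 to 87953792 (81.9 and 64.6), the last next to the top region in intron 1. Cuedc1 had 10 regions with a peak in 1 replicate, of which 3 lay 8.5 to 318.5 bp from a start of Srsf1, a splicing factor gene. The highest of replicate 1 ran from 87975392 to 87975591 (rank 9348, percentile 50.3), 271.5 bp from the start of a shorter Cuedc1 transcript, and that of replicate 3 from 87986358 to 87986662 (rank 12883, percentile 68.2). Mrps23 had 6 such regions. Its highest of replicate 1 was the same as for Cuedc1, and its highest of replicate 3 ran from 88121211 to 88121439 (rank 7078, percentile 82.5).

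Cep68 (ENSMUSG00000044066, chromosome 11 from 20127040 to 20149432, minus strand) encodes a centrosome protein that helps to hold the centrosomes together. Its region from 20130872 to 20131563, in intron 5 and 18214.5 bp from its start, scored 487, 341 and 718 (ranks 699, 500 and 412). The plus strand of chr11:20131128-20131427, covered by the peak of each replicate, is printed with each TTTGTT in capitals, which is AACAAA on the other strand.
Cep68 intron 5: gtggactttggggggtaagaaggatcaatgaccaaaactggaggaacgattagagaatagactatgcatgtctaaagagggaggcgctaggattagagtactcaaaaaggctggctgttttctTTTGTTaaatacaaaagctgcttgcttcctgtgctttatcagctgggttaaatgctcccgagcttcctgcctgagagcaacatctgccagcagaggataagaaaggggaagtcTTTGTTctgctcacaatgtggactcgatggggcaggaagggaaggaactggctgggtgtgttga
The other regions of Cep68 with a peak in every replicate were intergenic and downstream. The region from 20064974 to 20065308, 84291 bp from the start, scored 162, 79.0 and 143, and that from 20045349 to 20045758, 103878.5 bp away, scored 210, 80.4 and 114. Both were at higher percentiles in replicates 1 and 3 (80.0 to 89.5) than in replicate 2 (47.5 and 48.5). Over all regions with a peak in every replicate the median percentile was also lowest in replicate 2. It was 82.6, 65 and 92.8 in replicates 1, 2 and 3. No region of Cep68 had peaks in 2 replicates, and 7 had a peak in 1. Of these, the highest of replicate 1 ran from 20101060 to 20101365 (rank 5617, percentile 70.1), 222.5 bp from a start of Rab1, a gene of vesicle transport, and that of replicate 3 from 20234312 to 20234544 (rank 12001, percentile 70.4). The start of Cep68 itself had no peak nearer than the region in intron 5.

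Crkrs (annotated as Cdk12, ENSMUSG00000003119, chromosome 11 from 98064373 to 98139818, plus strand) encodes a kinase of the tail of RNA polymerase II. A region from 98063815 to 98064193, with its middle 369 bp upstream of the start, scored 168, 162 and 176 (ranks 3575, 1590 and 3183). They were at the 81.0, 80.4 and 92.1 percentiles, and in each list the score was below those at the starts of Ptma and Pipox. The region held none of the SOX or POU words searched, the core included, as the plus strand of the stretch covered by the peak of each replicate, chr11:98063854-98064138, shows without capitals.
Crkrs promoter: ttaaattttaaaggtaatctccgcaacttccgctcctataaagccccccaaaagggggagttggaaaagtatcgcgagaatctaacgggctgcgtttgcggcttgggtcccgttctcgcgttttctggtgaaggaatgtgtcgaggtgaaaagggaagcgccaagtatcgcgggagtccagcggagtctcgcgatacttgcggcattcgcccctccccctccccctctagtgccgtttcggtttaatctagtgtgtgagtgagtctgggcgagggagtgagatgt
The other region of Crkrs with a peak in every replicate, from 98160178 to 98160519, was 95975.5 bp from its start, downstream, and 30613.5 bp from a start of Neurod2, a transcription factor gene of neuronal differentiation. It scored 265, 85.4 and 126 (ranks 1880, 3827 and 5164). Of the 2 regions with peaks in 2 replicates, the one from 98010835 to 98011034 lay 8.5 bp from a start of Fbxl20, a ubiquitin ligase gene, with scores of 60.6 and 90.6 in replicates 2 and 3. The one from 97977648 to 97977884 lay in intron 2 of Fbxl20, with scores of 55.8 and 63.5 in replicates 1 and 3. The 4 regions with a peak in 1 replicate scored 52.9 to 112. The highest of replicate 1 ran from 98232991 to 98233261 (rank 6132, percentile 67.4), and that of replicate 3 from 98174843 to 98175008 (rank 23331, percentile 42.3).

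By place, 17 of the 33 regions with a peak in every replicate were intergenic, 9 intronic and 7 at a promoter (21.2%, with the middle within 2000 bp of a protein-coding start), against 19.2% at promoters over the whole series. In 10 regions the middle lay inside one of the 8 genes, 6 of them in Tex14. The nearest protein-coding start belonged to one of the 8 genes for 16 of the 33.

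The replicates ordered these regions alike, most closely replicates 2 and 3. Over the 33 regions, the scores of replicate 1 had a Spearman's rho of 0.908 with those of replicate 2 and of 0.913 with those of replicate 3, and rho was 0.982 for replicates 2 and 3. Without the 10 regions that hold a small RNA gene these values were 0.738, 0.769 and 0.969. These are descriptions over regions that share libraries and the input, without a test. Replicates 2 and 3 had peaks with the same first base in 9 of the 33 regions (27.3%), against 35.7% over the whole series. The lowest of the 3 percentiles was that of replicate 2 in 30 of the 33 regions (90.9%) and of replicate 1 in 3, and over the whole series it was that of replicate 2 in 80.2% and of replicate 1 in 19.2%. Of the regions with a peak in 1 replicate, 24 (37.5%) were of replicate 1, 40 (62.5%) of replicate 3 and 0 of replicate 2, which had the shortest list. Over the whole series these shares were 25.9, 73.6 and 0.479%.

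Words were counted on both strands of each region, with exact letters except for the joined SOX-POU word. AACAAA or AACAAT, a SOX word, was present in 24 of the 33 regions (72.7%), in 49 of 66 windows of the same width 2000 bp to either side (74.2%), and in 62.8% of all regions with a peak in every replicate. GACAAA or GACAAT, a second SOX word, was present in 21 regions (63.6%), against 42.4% of the flanking windows and 48.5% of all regions. The core of the SOX consensus, ACAA followed by an adenine or thymine and then by a purine, can overlap both, and was present in 31 regions (93.9%), against 86.4% of the flanking windows and 82.6% of all regions. The 2 regions without it were those at the Crkrs start and in Sez6.

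A wider region has more places for a word, and the regions with a small RNA gene were 872 to 1432 bp wide, whereas the median of all regions was 401 bp. In the 200 bp around the middle, AACAAA or AACAAT was present in 14 of the 33 regions (42.4%) and in 47.9% of all regions. For GACAAA or GACAAT these shares were 36.4 and 33.2%.

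The octamer, ATGCAAAT or ATGCTAAT, was counted apart for regions with and without a small RNA gene. It was in 8 of the 10 regions with one (80.0%) and in 2 of the 23 without (8.70%). The share was 11.6% of all regions with a peak in every replicate and 4.30% of their flanking windows. The 8 hold U3 or U2-type genes, which are identical or near-identical copies, so they are not independent counts. The 10 regions were also wider, with a median of 1061 bp against 466 bp for the 23. In the 200 bp around the middle the octamer was present in 2 of the 33 regions (6.06%) and in 8.90% of all regions. Before the small RNA genes it lay to one side of the middle. The joined SOX-POU word was searched as a looser pattern. Its SOX part was A or T, then TT, any letter, A or T, and any letter, so it need not be a SOX word. Its POU part was ATGC, then A or T, and AA. This pattern was in 0 of the 10 and in 2 of the 23, the regions downstream of Pecr and at the Pipox start. It was in 6.98% of all regions and 0.635% of their flanking windows. The 2 matches near the 8 genes have ATTGTT and ATTGTC as the SOX part. AACAAA or AACAAT was present in 9 of the 10 and 15 of the 23. A match of a word is a description of the sequence and not a measured site of binding.

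**Figure D4:**
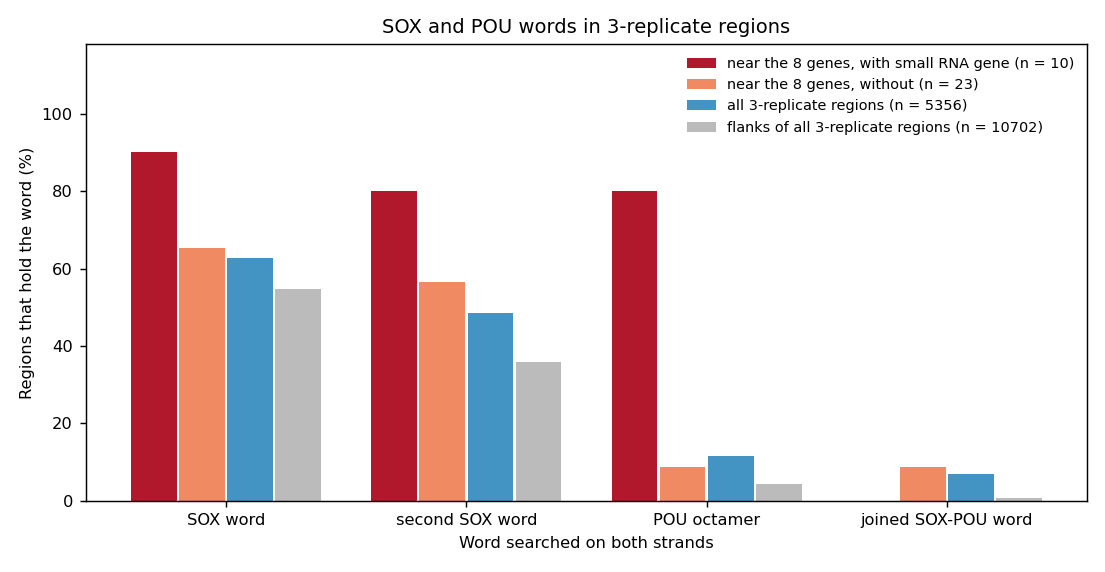
Share of regions with a peak in every replicate that hold a word on either strand (vertical axis, percent), for the 10 regions near the 8 genes with a small RNA gene, the other 23, all 5356 regions without unknown bases, and the flanking windows of all regions. The SOX word is AACAAA or AACAAT and the second SOX word GACAAA or GACAAT, and the octamer stands at 80.0% in the first group and at 8.70, 11.6 and 4.30% in the others.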

How the data were processed

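The authors sequenced 3 SOX3 ChIP libraries and 1 input library as 50 bp single-end reads and aligned them to mm9 with Bowtie (version 1.0.0 in the submitters' processing notes). They called peaks per replicate with MACS (bandwidth of 300, input as control, p threshold of 1e-05). The version of MACS and the treatment of multiply matching reads are not given in the sources used here. The deposited lists give each peak a score, which is not scaled between replicates. Without read counts the depth remains unknown, and the input was not analysed here.

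The members and lists were chosen with earlier results of these data known. Named were the 8 genes, the gene nearest to or around each site, and small RNA genes within it. Sites in every replicate and in 2 replicates were given singly. Those in 1 replicate were given by count and, for some genes, by range of scores. The highest-ranked of each list was named, since ranks of lists of unequal length cannot be compared.

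Positions were compared with GENCODE vM1 on NCBIM37, which is the mm9 assembly, and 0 peaks ran past a chromosome end. Introns were numbered in the longest transcript. Where a region held several peaks of a list, the highest score was used. The shown sequences were read from this reference outside annotated UTRs, except for the joined word in Pipox. Multi-copy sequences were those of 50 bases found more than once on either strand. The alternatives were other windows, thresholds, overlaps and promoter widths, equal list lengths and each replicate left out. Region merging, word search and copy counting were tested on simulated data. Python 3.11.15, numpy 2.4.6, scipy 1.17.1, numba 0.67.0, Biopython 1.88 and matplotlib 3.10.9 were used.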

Additional observations from a re-analysis of the deposited data

How the results depend on the processing

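Of 47 alternative values, 41 stayed within 1.5 times the reported one. The 110 regions near the 8 genes became 68 with windows of 50 kb, 49 with scores of 100 or more, 51 with equal numbers of top peaks from each list, and 72 to 110 with each replicate left out in turn, the 72 without replicate 3. The 33 regions with a peak in every replicate numbered 33 to 43 with a replicate left out, the 43 without replicate 2. The SOX word AACAAA or AACAAT, present in 24 of 33, was present in 14 within 200 bp around the middle and in 15 of the 23 regions without a small RNA gene, the latter chosen after seeing the data. Without the small RNA regions 7 of the 8 genes kept a region with a peak in every replicate, and Tex14 had none. The counts of such regions with a small RNA gene (10) and of genes with a region (8) were the same with each replicate left out, whereas those at promoters ran from 7 to 10. No paired analysis was possible because the replicates form 1 group. The lists hold no counts, so the precision of a score, and the size of a site below the threshold, could not be given.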
